A study of Mus musculus with 10 samples.

Results

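Genes of calcium, magnesium and vitamin D handling were followed in whole kidneys of old mice, namely Pvalb, Trpm6, Calb1, Trpv5, S100g, Slc8a1, Atp2b1, Vdr, Cyp24a1 and Cyp27b1. They were chosen by gene symbol and function, with results of the same genotype comparison already known, so their differences are given as a description and nothing is supported with them. Of the 10 genes, 9 had a row in the table of 13299 genes and all 9 entered the fit of 13236 genes, while Cyp27b1 was not analysed here. The 5 Rragc S74N/+ samples came from mice that carry the S74N change on a single allele of Rragc, and the 5 Rragc +/+ samples from mice with both alleles unchanged. All 10 samples are whole kidney from mice aged 1.5 years, with no treatment in the labels. Rragc encodes RagC, a small GTPase that relays nutrient sufficiency to mTORC1, and S74N is an activating change. The allele is carried in the germline and not restricted to the kidney tubule, and the labels give neither sex nor strain. The Y-linked transcripts Ddx3y, Uty, Kdm5d and Eif2s3y were read in all 10 samples, with summed levels of 369 to 479 normalized counts in Rragc +/+ and 459 to 505 in Rragc S74N/+.

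The distal convoluted tubule and the connecting tubule that follows it set the final amount of calcium and magnesium in the urine. Magnesium enters the cells of the distal convoluted tubule through the apical channel TRPM6. Calcium enters further along through the apical channel TRPV5, is carried across the cell by calbindins, and leaves on the basolateral side through the sodium-calcium exchanger and the plasma membrane calcium pump. Active vitamin D, made by CYP27B1 and broken down by CYP24A1, acts through the vitamin D receptor on many of these genes.

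Promoter sequences are shown for the pair of genes with the largest differences, Pvalb and Trpm6, and for the members whose window held a searched motif, Atp2b1 and S100g. Each is the RefSeq window of 250 bases before to 50 bases after a start site in GRCm38.p6, printed 5′ to 3′ on the strand of the gene, whereas the authors aligned to GRCm39. Of the 10 genes, 8 had such windows, 10 windows in all, and Calb1 and Cyp24a1 had no entry. Pvalb and Atp2b1 each had a further window that is not printed and held no searched motif. Capitals mark CACGTG, a motif bound by TFEB and related factors, and AGGTCA, a half-site of nuclear receptors, on either strand.
Pvalb, chr15:78206351-78206650, minus strand: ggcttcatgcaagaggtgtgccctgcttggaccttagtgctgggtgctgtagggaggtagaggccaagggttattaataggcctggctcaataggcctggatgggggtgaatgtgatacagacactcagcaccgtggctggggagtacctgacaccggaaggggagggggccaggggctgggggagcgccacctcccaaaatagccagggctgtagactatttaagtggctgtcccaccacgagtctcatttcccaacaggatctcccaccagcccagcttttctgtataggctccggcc
Trpm6, chr19:18749480-18749779, plus strand: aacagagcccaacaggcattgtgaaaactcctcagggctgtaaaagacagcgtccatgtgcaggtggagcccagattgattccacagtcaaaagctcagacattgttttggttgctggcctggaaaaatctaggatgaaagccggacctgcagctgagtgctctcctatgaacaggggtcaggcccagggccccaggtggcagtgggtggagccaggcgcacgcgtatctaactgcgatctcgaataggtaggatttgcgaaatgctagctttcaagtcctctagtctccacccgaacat
Atp2b1, chr10:98914392-98914691, plus strand: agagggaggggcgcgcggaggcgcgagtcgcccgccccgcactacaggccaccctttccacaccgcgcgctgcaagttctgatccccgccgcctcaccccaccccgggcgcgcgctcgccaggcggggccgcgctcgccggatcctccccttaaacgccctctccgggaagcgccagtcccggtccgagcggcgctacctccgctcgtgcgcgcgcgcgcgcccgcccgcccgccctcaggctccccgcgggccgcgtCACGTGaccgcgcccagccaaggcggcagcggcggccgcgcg
S100g, chrX:162964550-162964849, minus strand: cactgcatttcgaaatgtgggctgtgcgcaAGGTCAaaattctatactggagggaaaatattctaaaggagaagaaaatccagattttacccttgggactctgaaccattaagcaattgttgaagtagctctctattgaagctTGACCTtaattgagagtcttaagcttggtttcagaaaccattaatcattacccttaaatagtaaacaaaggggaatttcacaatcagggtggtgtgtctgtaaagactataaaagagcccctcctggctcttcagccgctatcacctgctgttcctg

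CACGTG reads the same on both strands and lay in 1 of the 10 windows, the printed one of Atp2b1, and in 7.15% of all 32851 promoter windows. AGGTCA lay in 1 of the 10 windows, that of S100g, where it occurs once on each strand, and in 16.3% of all windows. A pair of half-sites (AGGTCA or AGTTCA or GGGTCA or GGTTCA) set 3 bases apart, the arrangement the vitamin D receptor prefers, lay in none of the 10 windows and in 0.0396% of all windows. The motifs were chosen after the expression values were seen, and a match describes letters in the window and no binding.

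The values are normalized counts of 3′ end reads, which do not grow with transcript length. Differences are log2 fold changes of Rragc S74N/+ over Rragc +/+ on the log2(normalized count + 1) scale, with a standard error (SE) and a limma p-value adjusted over all tested genes, and a gene was called at an adjusted p under 0.05. Rragc itself was measured at 146 ± 42.7 normalized counts in Rragc +/+ and 124 ± 26.4 in Rragc S74N/+ (SD, n = 5 each). These 3′ end reads do not show the coding change, so the level of Rragc is no check of the genotype labels. Read totals were 4488493 to 5797251 in the 8 samples where whole reads could be recovered.

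Of the 9 members in the table, 3 fell in Rragc S74N/+ kidneys, namely Pvalb, Trpm6 and Calb1, and none rose. Over all tested genes the share called was 6.03%, with 2.58% lower and 3.45% higher. The other 6 members, Trpv5, S100g, Slc8a1, Atp2b1, Vdr and Cyp24a1, did not pass the threshold. The median log2 fold change of the 9 members was -0.37, beside -0.01 over all tested genes. In these 3 members the groups did not overlap, which was so for 8.16% of tested genes. Since whole tissue was measured, fewer cells of a type and less RNA per cell cannot be told apart.

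**Figure D1:**
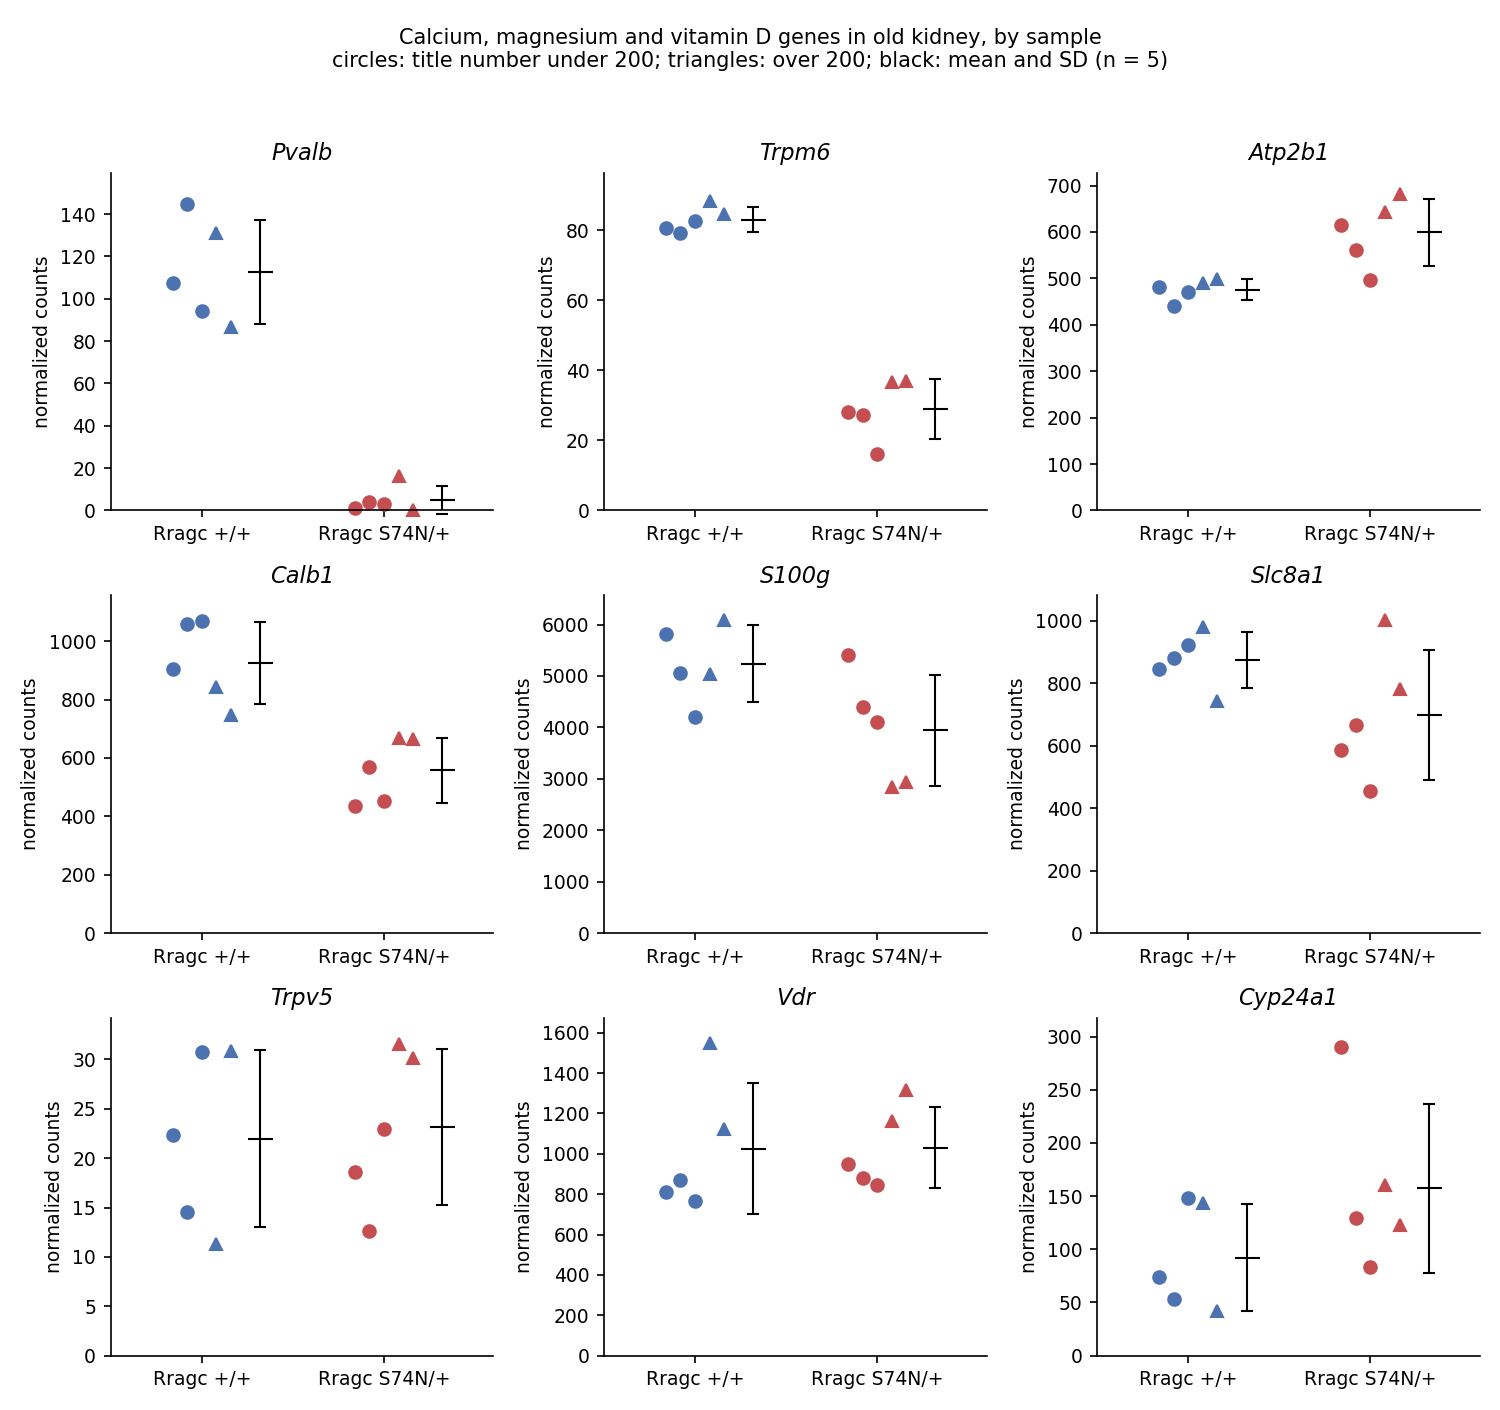
Normalized counts (linear axes from 0) of the 9 measured members in each of the 5 Rragc +/+ (blue) and 5 Rragc S74N/+ (red) kidneys, with circles for samples whose title number is under 200, triangles for those over 200, and the mean and SD in black. The groups are apart for Pvalb, Trpm6 and Calb1 and overlap for the other 6 genes.

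Pvalb encodes parvalbumin, a cytosolic calcium buffer found in the early distal convoluted tubule. In Rragc +/+ replicates 1 to 5 it was measured at 107, 145, 94.1, 131 and 86.6 normalized counts. In Rragc S74N/+ replicates 1 to 5 it was measured at 0.93, 3.88, 3.00, 16.3 and 0. The highest Rragc S74N/+ sample was thus far under the lowest Rragc +/+ sample. The means were 113 ± 24.6 and 4.82 ± 6.60 normalized counts (SD, n = 5 each), a 23.4-fold difference of means. Without Rragc S74N/+ replicate 4 that group's mean was 1.95 ± 1.79 (n = 4) and the difference 57.7-fold. On the log2 scale it stood at -4.93 (SE 0.55, limma adjusted p = 9.4e-05), furthest from 0 of the members. The Rragc S74N/+ values rest on few reads, 1, 4, 16 and 0 in replicates 1, 2, 4 and 5, and a count of 0 in replicate 5 allows up to 3 reads or 2.91 normalized counts, counting error only. Parvalbumin is also a skeletal muscle protein. The 10 skeletal muscle markers of a prepared list were not analysed here.

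Trpm6 encodes the apical magnesium channel. Its levels in Rragc +/+ replicates 1 to 5 were 80.5, 79.1, 82.6, 88.2 and 84.6 normalized counts. In Rragc S74N/+ replicates 1 to 5 they were 28.0, 27.1, 15.996, 36.7 and 36.9. The Rragc +/+ samples lay close together, and every Rragc S74N/+ sample lay far under the lowest of them. The mean fell from 83.0 ± 3.58 to 28.9 ± 8.59 normalized counts, or 34.9% of the Rragc +/+ mean. On the log2 scale this was -1.54 ± 0.22 (SE; limma adjusted p = 0.000867).

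Calb1 encodes calbindin-D28k, which carries calcium through the cells of the late distal convoluted and connecting tubule. Rragc +/+ replicates 1 to 5 held 904, 1060.1, 1070.3, 844 and 747 normalized counts. Rragc S74N/+ replicates 1 to 5 held 435, 569, 454, 667 and 664. The gap between the groups was small, from 667 to 747, and the mean fell from 925 ± 140 to 558 ± 111 normalized counts. Its log2 fold change was -0.74 ± 0.15 (SE; limma adjusted p = 0.00918).

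The remaining calcium carriers and buffers did not pass. S100g encodes calbindin-D9k, the small calcium buffer, and was the most abundant member. It was measured at 5815, 5055, 4196, 5041 and 6094 normalized counts in Rragc +/+ replicates 1 to 5 and at 5409, 4401, 4100.1, 2848 and 2943 in Rragc S74N/+ replicates 1 to 5. Only replicates 3, 4 and 5 of Rragc S74N/+ lay under every Rragc +/+ sample. The log2 fold change was -0.44 (95% interval -0.80 to -0.09, limma adjusted p = 0.118). Leaving out Rragc S74N/+ replicate 1 took it to -0.57 and past the threshold (limma adjusted p = 0.0154).

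Slc8a1 encodes the basolateral sodium-calcium exchanger. It was measured at 846, 879, 922, 979 and 742 normalized counts in Rragc +/+ replicates 1 to 5 and at 585, 665, 455, 1002 and 782 in Rragc S74N/+ replicates 1 to 5. Replicates 1, 2 and 3 of Rragc S74N/+ lay under every Rragc +/+ sample, while replicate 4 was the highest of all 10. Its log2 fold change was -0.37 (95% interval -0.73 to -0.01, limma adjusted p = 0.185).

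Atp2b1 encodes the plasma membrane calcium pump PMCA1, which pushes calcium out on the basolateral side. Rragc +/+ replicates 1 to 5 held 481, 441, 470.4, 489 and 498 normalized counts. Rragc S74N/+ replicates 1 to 5 held 615, 561, 497, 643 and 681. Of the Rragc S74N/+ samples, 4 lay above every Rragc +/+ sample, and replicate 3 alone overlapped them. The log2 fold change was 0.32 (95% interval 0.09 to 0.56, limma adjusted p = 0.084), opposite in sign to the called members. It passed without Rragc S74N/+ replicate 3, at 0.39 (limma adjusted p = 0.0456), and with samples scaled to equal sums, at 0.40 (limma adjusted p = 0.0335). It also passed in DESeq2 on the 8 samples with recovered reads, at 0.41 (DESeq2 adjusted p = 0.0221). DESeq2 called 4 members in all, beside 10.6% of the genes it tested.

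Trpv5, the apical calcium channel, was the lowest member in Rragc +/+. It was measured at 22.4, 14.6, 30.7, 11.4 and 30.8 normalized counts in Rragc +/+ replicates 1 to 5 and at 18.7, 12.6, 23.0, 31.6 and 30.1 in Rragc S74N/+ replicates 1 to 5. The ranges overlapped almost fully, and the log2 fold change of 0.10 had a 95% interval of -0.60 to 0.81 (limma adjusted p = 0.88). A difference inside that interval, in either direction, could not be told from 0.

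Of the vitamin D genes, Vdr encodes the receptor of active vitamin D. It was measured at 810.0, 872, 767, 1551 and 1122 normalized counts in Rragc +/+ replicates 1 to 5 and at 951, 879, 847, 1160.0 and 1318 in Rragc S74N/+ replicates 1 to 5. The ranges overlapped, with the highest value in a Rragc +/+ sample. Its log2 fold change was 0.04 (95% interval -0.34 to 0.42, limma adjusted p = 0.916).

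Cyp24a1 encodes the mitochondrial enzyme that inactivates vitamin D. It was measured at 73.8, 53.1, 148, 143 and 41.8 normalized counts in Rragc +/+ replicates 1 to 5 and at 290.0, 129.9, 83.0, 161 and 122 in Rragc S74N/+ replicates 1 to 5. Replicates 1 and 4 of Rragc S74N/+ exceeded every Rragc +/+ sample, and the other 3 lay inside their range. The log2 fold change was 0.82 (95% interval 0.07 to 1.57, limma adjusted p = 0.159).

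**Figure D2:**
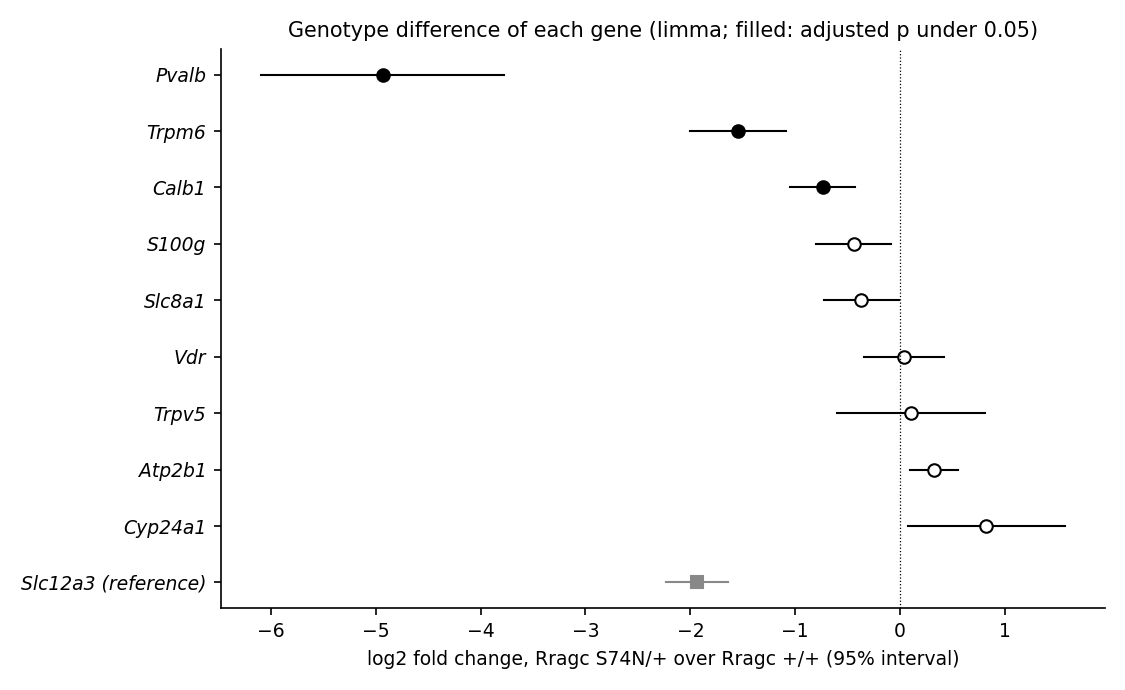
Log2 fold changes of the 9 members (circles) and of Slc12a3 as a reference (grey square), Rragc S74N/+ over Rragc +/+, with 95% intervals, filled where the limma adjusted p was under 0.05. Pvalb, at -4.93, lies furthest from 0, followed by Trpm6 at -1.54 and Calb1 at -0.74, while the intervals of Trpv5 and Vdr span 0.

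Ordered by mean normalized count in Rragc +/+, the members ran S100g, Vdr, Calb1, Slc8a1, Atp2b1, Pvalb, Cyp24a1, Trpm6 and Trpv5. S100g exceeded Vdr, and Slc8a1 exceeded Atp2b1, in 5 of 5 samples. Vdr and Calb1 were not separated, with Vdr higher in 2 of 5, nor were Pvalb and Cyp24a1, with Pvalb higher in 3 of 5, or Cyp24a1 and Trpm6, with Cyp24a1 higher in 2 of 5. In Rragc S74N/+ the order of means was S100g, Vdr, Slc8a1, Atp2b1, Calb1, Cyp24a1, Trpm6, Trpv5 and Pvalb. Pvalb moved from the sixth place to the last and was under Trpv5 in 5 of 5 samples. Atp2b1 stood above Calb1 in 3 of 5 of these samples.

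Slc12a3 encodes the sodium-chloride cotransporter that defines the distal convoluted tubule. It was measured at 4282, 4313, 3802, 4321 and 3559 normalized counts in Rragc +/+ replicates 1 to 5 and at 901, 827, 996, 1410 and 1257 in Rragc S74N/+ replicates 1 to 5. It fell with no overlap, at a log2 fold change of -1.94 with an SE of 0.14 (limma adjusted p = 1.61e-06). Per 1000 Slc12a3 counts of the same sample, Pvalb was 27.6 ± 4.12 in Rragc +/+ and 4.06 ± 4.57 in Rragc S74N/+ (SD, n = 5 each), and the groups still did not overlap. Trpm6 stood at 20.6 ± 2.22 and 27.1 ± 6.64 per 1000 Slc12a3 counts, with overlapping groups. Calb1 stood at 228.7 ± 34.9 and 526 ± 94.6 per 1000 Slc12a3 counts, higher in every Rragc S74N/+ sample. Slc8a1 was 216 ± 18.4 and 649 ± 128 on that scale, and Trpv5, S100g, Atp2b1, Vdr and Cyp24a1 were likewise higher without overlap. Slc12a3 itself fell, to 26.6% of its Rragc +/+ mean, and the ratios of all members carry that fall. Calb1 was higher on this scale although its own mean fell, to 60.3% of the Rragc +/+ mean.

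**Figure D3:**
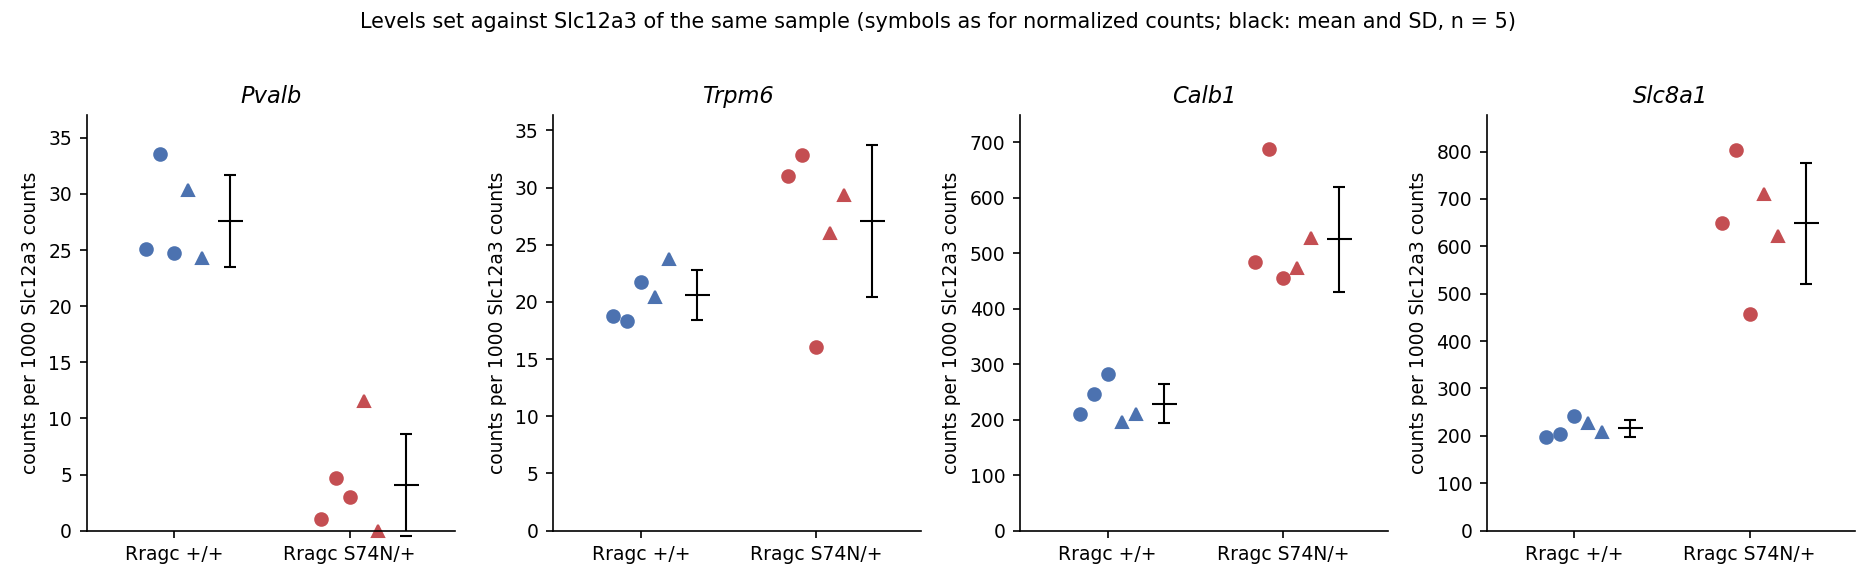
Counts of Pvalb, Trpm6, Calb1 and Slc8a1 per 1000 Slc12a3 counts in the same sample (linear axes from 0), for 5 Rragc +/+ (blue) and 5 Rragc S74N/+ (red) kidneys with mean and SD in black, circles for title numbers under 200 and triangles for those over 200. Pvalb is lower without overlap, Trpm6 overlaps, and Calb1 and Slc8a1 are higher without overlap.

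Of 14 distal convoluted tubule markers, with a median log2 fold change of -0.90, none rose and 10 fell, beside 2.58% of all tested genes called lower. They were Slc16a7, a monocarboxylate transporter, at -2.26, Slc12a3, Klhl3, an adaptor for the degradation of WNK kinases, at -1.47, the transcription factor Emx1 at -1.21, and Egf at -1.05. The kinases Wnk4 at -0.98 and Wnk1 at -0.48, the potassium channel Kcnj10 at -0.95, Tmem52b at -0.84 and Cnnm2 at -0.62 completed the 10. The other 4, Stk39 at -0.53, Pgam2 at -0.52, Fxyd2 at -0.36 and Sgk1 at -0.10, were not called. The summed level of the 14 markers was 19562 to 24646 normalized counts in Rragc +/+ and 12616 to 15281 in Rragc S74N/+. Fxyd2 alone held 10298 of the mean sum of 22647 in Rragc +/+ and 7953 of 13662 in Rragc S74N/+. Of 15 connecting tubule and principal cell markers 1 fell, Klk1, beside the same 2.58% of all tested genes. Their summed levels of 4536 to 7456 and 3817 to 6275 overlapped. By fitted value 7 of the 15 were lower, among them Scnn1a at -0.58 and Aqp4 at -1.35, neither called, and 8 were higher. The difference between these marker lists was not tested, and the part of the marker levels in the values of Pvalb, Trpm6 and Calb1 was not tested. No distal convoluted tubule marker was at 0 in the mean of either group, which does not tell fewer cells from less RNA per cell.

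Some markers of other cell types were also called, beside 2.58% lower and 3.45% higher over all tested genes. Of 9 thick ascending limb markers 4 fell, with summed levels of 9533 to 12705 normalized counts in Rragc +/+ and 4156 to 10246 in Rragc S74N/+, that overlapped. Umod, encoding uromodulin, fell by 1.55 on the log2 scale, while Slc12a1, the sodium-potassium-chloride cotransporter that defines this segment, was not called at 0.043 (limma adjusted p = 0.909). Ptger3, Ppp1r1a and Cldn10 also fell, and Cldn16 and Nos1 stood at 0.44 and 1.25 without passing. Of 13 leukocyte markers 5 rose, among them Cd74 at 1.05 and Ptprc at 1.20, with summed levels of 1373 to 1885 and 2597 to 3463. Cd74 alone held 910 of the mean sum of 1653 in Rragc +/+ and 1864 of 3073 in Rragc S74N/+. By fitted value 12 of the 13 were higher and 1 lower, Cd68 at -0.34. Neither Cd68 nor Adgre1, at 0.18, was called. Of 9 injury markers 3 rose, namely Havcr1, Lcn2 and Vcam1. Of 12 proximal tubule markers 2 fell, Slc5a2 and Gatm, and the most abundant, Slc34a1, was not called at -0.17. Of 9 intercalated cell markers 2 fell, Slc4a1 and Aqp6, and Slc26a4 rose. Adipocyte markers summed to 11.4 to 1200 normalized counts in Rragc +/+ and 2.04 to 4808 in Rragc S74N/+, and none of the 5 tested was called.

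**Figure D4:**
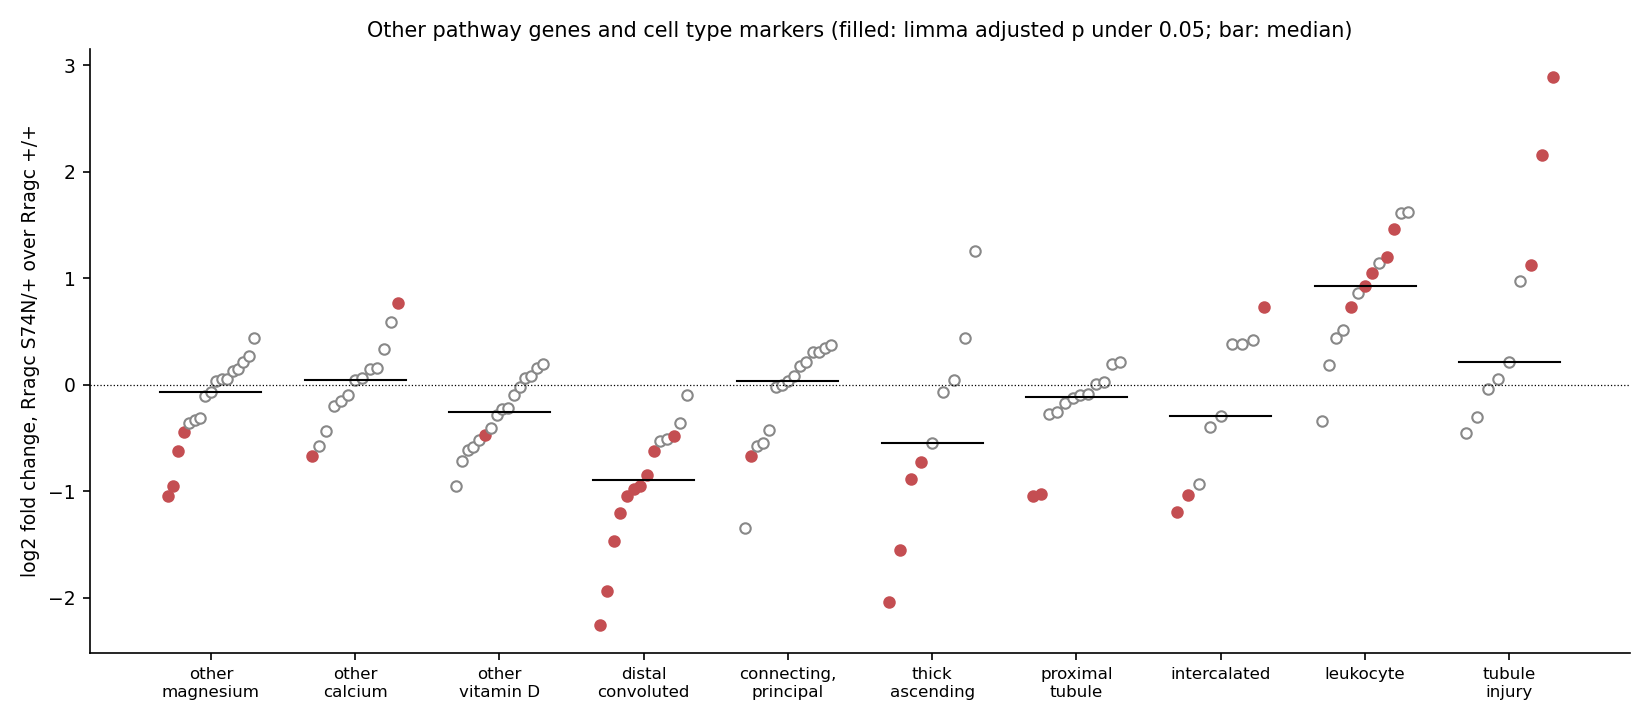
Log2 fold changes, Rragc S74N/+ over Rragc +/+, of the tested genes of 10 lists ordered by value within each list, filled red where the limma adjusted p was under 0.05, with a bar at the list's median. The distal convoluted tubule list has its median at -0.90 and the leukocyte list at 0.93, while the other magnesium, calcium and vitamin D lists have medians of -0.07, 0.04 and -0.26.

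Outside the 10 members, 45 of 56 further genes of magnesium, calcium and vitamin D handling were tested, of which 6 fell, 1 rose and 38 were not called. For comparison, calls made up 6.03% of the 13236 genes in the fit, with falls at 2.58% and rises at 3.45%. Whether the counts here and in the separate magnesium, calcium and vitamin D lists exceed those shares was not tested. Of 17 magnesium genes, 4 fell. Egf, whose product stimulates TRPM6, fell from 3201 ± 590 to 1560 ± 357 normalized counts (SD, n = 5 each), and Kcnj10, a basolateral potassium channel of the distal convoluted tubule, from 84.3 ± 3.85 to 44.7 ± 13.2. Cnnm2, a basolateral protein tied to magnesium transport, fell from 171 ± 18.9 to 110 ± 13.0 normalized counts, and Pcbd1 from 812 ± 94.4 to 594 ± 40.8. Egf, Kcnj10 and Cnnm2 are also on the distal convoluted tubule list. Trpm7, the related magnesium channel, was not called, at 0.15 (limma adjusted p = 0.554).

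Of 13 calcium genes, Klk1, encoding tissue kallikrein, fell by 0.67 on the log2 scale and Anxa2, encoding annexin A2, rose by 0.76. Casr, the calcium-sensing receptor, stood at -0.20 and Pth1r, the receptor of parathyroid hormone, at 0.06, and neither was called. Of 16 vitamin D genes, Dab2, an adaptor of megalin, fell by 0.47 on the log2 scale. Kl, encoding klotho, the co-receptor of FGF23, did not overlap between the groups, yet at -0.58 did not pass (limma adjusted p = 0.0589), and Rxra, the partner of the vitamin D receptor, stood at -0.23. Lrp2, encoding megalin, stood at 0.19. Trpv6 and Cyp2r1 were not analysed here.

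Several of these calls did not hold when 1 sample was left out. The 7 calls became 3, 2, 3 and 4 without Rragc +/+ replicate 1, 2, 4 and 5, and 4 without Rragc S74N/+ replicate 2 or 5. The count was 9 without Rragc +/+ replicate 3, and 8, 6 and 5 without Rragc S74N/+ replicate 1, 3 and 4. Over all genes the calls, 798 with all samples, ran from 311 to 902 in the fits that left out 1 sample. Egf and Kcnj10 passed in 10 of 10 such fits and Cnnm2 in 9, lost without Rragc +/+ replicate 2 (limma adjusted p = 0.0507). Pcbd1 and Anxa2 each passed in 4, Klk1 in 5 and Dab2 in 2 of the 10 fits. Pvalb, Trpm6 and Calb1 passed in all 10. With samples scaled to equal sums, 2 of the other pathway genes rose and 4 fell.

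The sample titles carry numbers in separate ranges, under 200 for 3 samples a group and over 200 for 2 samples a group, and the labels do not say what the numbers stand for. Pvalb fell in both ranges, with log2 fold changes of -5.09 under 200 and -4.69 over 200, and so did Trpm6, at -1.77 and -1.21 (limma adjusted p from 0.000271 to 0.031). Calb1 fell under 200, at -1.06 (limma adjusted p = 0.0283), and did not pass over 200, at -0.25 (limma adjusted p = 0.306). S100g did not pass under 200, at -0.11 (limma adjusted p = 0.763), and fell over 200, at -0.94 (limma adjusted p = 5.55e-06). Slc8a1 stood at -0.65 and 0.055, neither of them called. The difference between ranges reached no adjusted p under 0.05 for any of 13236 genes in limma, with 746 at an unadjusted p under 0.05, and its adjusted p was 0.799 for Calb1, S100g and Slc8a1. Atp2b1 stood at 0.26 and 0.42, Cyp24a1 at 0.80 and 0.85, Vdr at 0.13 and -0.093, and Trpv5 at -0.28 and 0.68, none of them called in a range.

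By root mean square difference of log2 values from the Rragc +/+ mean over the 10 samples, the profile nearest to Trpm6 was that of Klhl3, at 0.20. Slc12a3 ranked 5 in nearness to Trpm6, 22 to Pvalb and 10013 to Calb1. The distance includes the genotype difference, so genes with unlike log2 fold changes lie apart. Those of Slc12a3, Trpm6 and Calb1 were -1.94, -1.54 and -0.74. The ranks alone do not show shared variation within a group. The nearest to Pvalb were Slc34a3, a sodium-phosphate cotransporter of the proximal tubule, at 0.99, Ugt2b34, at 1.18, and Gpx6, at 1.36. Slc34a3 fell from 78.2 ± 24.3 to 2.53 ± 1.40 normalized counts. The nearest to Calb1 were Car12, a carbonic anhydrase, and Pdp2, both at 0.15, and Rnf186 at 0.18. For Trpm6, D630023F18Rik at 0.30 and Mdk, encoding midkine, at 0.33 came next after Klhl3.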

How the data were processed

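RNA of 10 whole kidneys was sequenced as 3′ end libraries (QuantSeq, 300 ng of total RNA, quality scores 6.2 to 7). Per the labels and the study's methods, the authors checked reads with FastQC 0.11.7, aligned them to GRCm39 with TopHat2 2.0.10, Bowtie 1.0.0 and SAMtools 0.1.19, and counted them per gene with HTSeq 0.6.1. The deposited signal values are read counts that the authors divided by a size factor of each sample. The lowest mean of any gene was 4.37, and a gene without a row was not analysed here. Within a group, recovered reads differed by more than sampling noise (lowest chi-square 4.2 per degree of freedom among 12 pairs).

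Genes with at least 5 normalized counts in at least 5 samples (13236, with 63 removed) were fitted as log2(value + 1) with limma 3.58.1 in R 4.3.3, genotype as the only term and a variance trend, two-sided, with Benjamini-Hochberg adjustment over all tested genes. The pseudocount of 1 understates changes of low genes. In 8 samples 100% of values came out as whole reads within 0.1 read, and edgeR 4.0.16 and DESeq2 1.42.0 were run on those. The limma fit was also run on simulated counts with known changes. No outcome of that run is given here, and nothing is supported with it. Replicates were numbered by order of deposit, and nothing in the labels ties a sample to a particular animal, so p-values measure the spread between these samples. The members, lists, motifs and tests were chosen with earlier results of these data known. Named genes are the members, the called genes of the pathway and distal convoluted tubule lists, a set of well-known pathway genes whether called or not, abundant genes of each other marker list, and for Pvalb, Trpm6 and Calb1 the 3 nearest profiles. Other marker genes were named after their values were seen.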

Additional observations from a re-analysis of the deposited data

Results flagged for a closer look

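Among 82 groups of 5 samples searched, 5 held a sample far from the other 4, where chance gives about 1 in 20, or 4.1. Pvalb was 16.3 normalized counts in Rragc S74N/+ replicate 4 against 0 to 3.88 in the other 4 samples of that group. Anxa2 was 691 normalized counts in Rragc S74N/+ replicate 1 against 322 to 391 in the others, and Dab2 was 1101 there against 1612 to 1799. The summed adipocyte markers reached 4808 normalized counts in the same sample, against 2.04 to 302 in the others, and 1200 in Rragc +/+ replicate 3, against 11.4 to 324.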

How the results depend on the processing

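Of the members, 3 or 4 passed under all 26 alternatives. Pvalb and Trpm6 passed in all 26, and Calb1 in all but the fit within title numbers over 200, at -0.25 on the log2 scale. Leaving out 1 sample gave 3 to 4 members called, 2 to 9 other pathway genes, 9 to 11 distal convoluted tubule markers and 311 to 902 genes in all, where all 10 samples gave 798. Log2 fold changes over those fits ran from -5.49 to -4.47 for Pvalb, -1.64 to -1.35 for Trpm6, -0.81 to -0.66 for Calb1, -0.57 to -0.34 for S100g, -0.51 to -0.23 for Slc8a1, 0.28 to 0.39 for Atp2b1, 0.57 to 1.04 for Cyp24a1, -0.10 to 0.29 for Trpv5 and -0.054 to 0.20 for Vdr. Fits within title numbers, chosen after seeing the data, turned Trpv5 to -0.28 under 200, and over 200 turned Slc8a1 to 0.055 and Vdr to -0.093 and took S100g to -0.94. The cause was not tested. Atp2b1 passed at 0.40 with equal sums, 0.37 with equal sums without mitochondrial genes and 0.41 in DESeq2. Its log2 ratio of means was 0.33, with an unadjusted exact permutation p = 0.0159 that is not comparable with the adjusted threshold. Other pathway genes called, 7 as reported, were 3 without a variance trend, 0 under 200, 5 over 200 and 1 at an adjusted p under 0.01. Distal convoluted tubule markers called were 4 under 200 and 9 over 200. Over all genes the count was 391 without a variance trend, 1402 in DESeq2, 46 under 200, 617 over 200 and 187 at an adjusted p under 0.01. Equal sums gave 76.1% of calls higher, against 57.3%, and shifted the median of all genes by 0.08. Trpv5 could not be fitted under a minimum mean of 50, and a term for Xist was not run, as Xist was not analysed here. No paired analysis was possible because the labels give no replicate numbers that samples of the groups share.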
